A study of Mus musculus with 20 samples.

Results

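The 10 genes described here are transcriptional targets of p53 and inhibitors of the cell cycle, *Cdkn1a*, *Cdkn2a*, *Mdm2*, *Gadd45a*, *Gadd45b*, *Gadd45g*, *Ccng1*, *Trp53inp1*, *Phlda3* and *Bbc3*. They were chosen by name from 19505 genes measured in mouse plantaris muscle, and each had 1 probe set (the group of array probes that stands for a transcript). Female Pax7CreER/+; Rosa26DTA/+ mice aged 5 months received tamoxifen, which removes satellite cells (SC-), or vehicle, which leaves them (SC+). The plantaris was then overloaded by removing its synergists (mechanical overload, MOV) for 1, 3, 5 or 7 days, or left in place after sham surgery. The 20 arrays formed 10 groups of 2: SC- MOV at days 1, 3, 5 and 7, SC- sham, SC+ MOV at days 1, 3, 5 and 7, and SC+ sham. All mice carried both alleles, the Cre recombinase is driven by the *Pax7* promoter of satellite cells, and no group received tamoxifen with its satellite cells kept, so a difference between SC- and SC+ cannot be told apart from a difference between tamoxifen and vehicle. Each array held RNA pooled from several mice, so the spread given here is between pools and not between mice.

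p53 is a transcription factor that DNA damage and other stresses stabilize. Among its best known targets are *Cdkn1a*, whose product p21 inhibits cyclin-dependent kinases and holds cells in G1, *Mdm2*, the ubiquitin ligase that returns p53 to the proteasome, and *Bbc3*, whose product PUMA starts apoptosis. The GADD45 proteins link stress to cell cycle arrest and to p38 and JNK signaling, and p21 is also raised in myoblasts as they leave the cell cycle to differentiate.

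Promoter sequence was read first, to show which members carry the p53 element close to a transcription start. RefSeq windows of 300 bases (250 before to 50 after each start, GRCm38.p6) were found for 9 of the 10 members, and not for *Trp53inp1*. The p53 half-site is the consensus decamer to which a p53 dimer binds and whose reverse complement is again the consensus. It was found in the windows of 4 members, *Cdkn1a*, *Mdm2*, *Gadd45a* and *Ccng1*. Over all genes it was found in 9.55% of 27025 genes with a window, and in 8.36% of all 32851 windows. Adjacent half-sites without a spacer and with at most 1 mismatch were found in *Cdkn1a* and *Ccng1*, and in 0.0814% of genes (0.067% of windows). These matches overlap the single half-sites. An exact pair of half-sites with a spacer of at most 13 bases was found in *Cdkn1a* alone of the members, and in 0.074% of genes. The first half-site of that pair begins 73 bases before the start and is not printed here. The exact half-site printed for *Cdkn1a* lies in the more upstream of its 2 windows (chr17:29090918-29090947, plus strand) and begins 51 bases before that start. The exact half-site of *Ccng1* begins 185 bases before its start, and that of *Mdm2* 186 bases before its start. With 10 bases on either side, these stretches are chr11:40755452-40755481 for *Ccng1* and chr10:117710925-117710954 for *Mdm2*, both on the minus strand. The adjacent pair begins 195 bases before the start in *Ccng1*, so that its first decamer is the lower case run before the capitals, and 51 bases before the start in *Cdkn1a*. The 3 stretches are shown because these genes responded to MOV in different ways, with the exact half-site in capitals:
Cdkn1a: tggccttcagGAACATGTCTtgacatgttc
Ccng1: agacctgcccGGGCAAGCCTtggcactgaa
Mdm2: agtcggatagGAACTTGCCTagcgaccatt

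The octamer ATTTGCAT, the binding motif of OCT1 and related factors, was searched on both strands after the sequences had been seen, and none of its matches in these windows overlaps a p53 match or a TATA box. It was found in the windows of 2 members, *Gadd45a*, which holds it in both orientations, and *Gadd45g*, and in 1.97% of genes (1.74% of windows). TATAAA, the core of the TATA box, was found in *Gadd45b* and *Gadd45g* and in 15.7% of genes (13.6% of windows). The octamers are shown in capitals because these 2 genes had an early rise, described below. That rise was not particular to them. *Mdm2*, with no octamer in its window, rose in SC+ by 1.47 at day 1 and differed by 0.18 at day 3. *Cdkn1a*, also without it, was highest at day 1, and *Gadd45a* was still higher in SC+ at day 3 (1.76). Whether the octamer bears on the rise was not tested. The first *Gadd45a* stretch is chr6:67037487-67037514 (minus strand), the second chr6:67037460-67037487 (minus strand), and the *Gadd45g* stretch chr13:51846562-51846589 (plus strand):
Gadd45a, upstream octamer: acgtctgctaATTTGCATaacccaatgg
Gadd45a, downstream octamer: gcctgactgcATGCAAATgaagctggac
Gadd45g: ctgccgcctcATTTGCATcagaaagcgg
A match to a motif describes these letters and is not a measured binding site.

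The arrays of a group correlated at 0.978 to 0.991 over all genes, and no 2 arrays were identical. The level of *Pax7*, the satellite cell transcription factor, was 3.77 to 4.70 in SC- and 4.17 to 5.22 in SC+ on the log2 scale. These ranges over all time points overlapped. With the time point as a factor in limma, SC- differed from SC+ by -0.46 for *Pax7* (adjusted p = 0.212) and by -1.03 for *Myf5* (adjusted p = 0.0615). Both passed at an unadjusted p under 0.05 alone. The satellite cell markers *Vcam1*, *Calcr*, *Chodl* and *Sdc4* did not pass (0, -0.21, -0.09 and -0.10). All levels below are the deposited log2 values, which ran from 2.22 to 19.93 over the table. Values of different genes come from different probes and were not set against each other. How often groups of 2 arrays were separated over all genes was not counted. A separation given below therefore describes the arrays and is not a test. In whole muscle, a change in the number of cells of a type and a change in RNA per cell cannot be told apart.

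MOV raised *Cdkn1a* at every day in both SC- and SC+. In SC- muscle its level was 10.82 and 11.26 in the sham arrays, 16.49 and 15.36 at day 1, 13.56 and 13.30 at day 3, 13.90 and 13.23 at day 5, and 13.67 and 12.32 at day 7. In SC+ muscle it was 11.28 and 12.40 in the sham arrays, 15.98 and 16.24 at day 1, 14.10 and 14.26 at day 3, 14.09 and 14.30 at day 5, and 14.59 and 14.11 at day 7. Every MOV array lay above both sham arrays of its own treatment, and the day 1 arrays were the highest. The log2 fold change over sham was 4.88, 2.39, 2.52 and 1.95 at days 1, 3, 5 and 7 in SC- (SE 0.43 each, adjusted p = 5.64e-07, 0.000433, 0.00017 and 0.00166). In SC+ it was 4.27, 2.34, 2.35 and 2.51 (SE 0.33 each, adjusted p = 9.69e-06, 0.000385, 0.000681 and 0.000504), which is 19.2-fold at day 1 and 5.05- to 5.68-fold on the later days. The fall of *Cdkn1a* between days 1 and 3 passed the test in SC- (-2.49, adjusted p = 0.00229) and in SC+ (-1.93, adjusted p = 0.00587). Days 3, 5 and 7 were not separated, with a change of 0.02 between days 3 and 5 in SC+ (95% interval -0.70 to 0.73). Without the first SC- day 7 array, the SC- rise at day 7 was 1.28 (adjusted p = 0.0628).

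**Figure D1:**
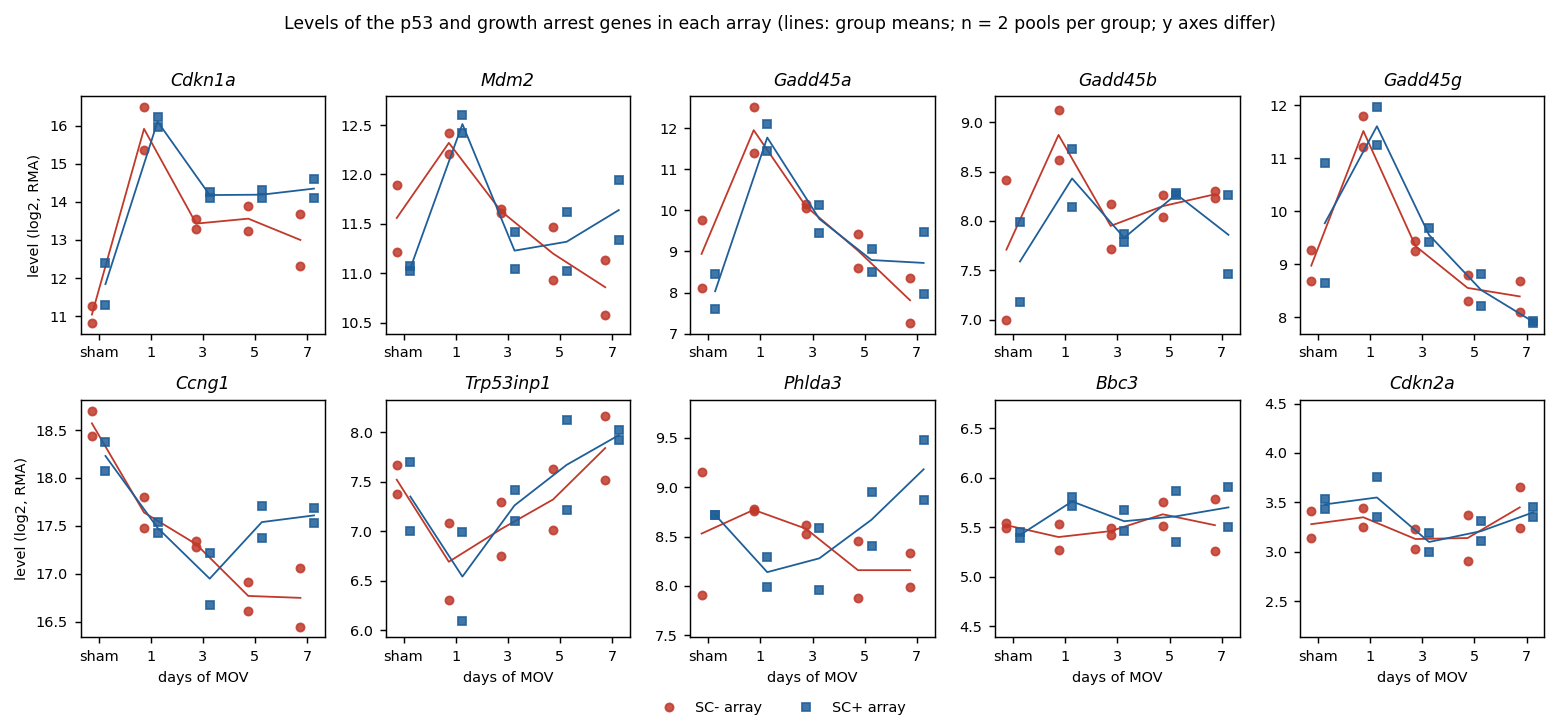
Level of each of the 10 genes (log2 RMA value, y axis, a scale of its own in each panel) in sham muscle and after 1, 3, 5 and 7 days of MOV (x axis). Points are arrays, red circles SC- and blue squares SC+, and lines join the means of 2 arrays. *Cdkn1a* stays above sham throughout, *Gadd45a* and *Gadd45g* peak at day 1, and *Ccng1* lies below sham at every day.

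Calls against sham were made by limma at an adjusted p under 0.05. Of the 10 members, 3 were higher and 1 was lower at day 1 in SC- MOV, where 6.8% of all genes were higher and 7.62% lower. At days 3, 5 and 7 in SC-, 1 member was higher, *Cdkn1a*, where 11.7%, 14.9% and 15% of all genes were, and 1 was lower, *Ccng1*, where 9.57%, 13% and 13.6% of all genes were. In SC+ MOV, 4 members were higher and none lower at day 1 (8.7% and 9.03% of all genes), 2 higher and 1 lower at day 3 (12% and 9.52%), 1 higher and none lower at day 5 (11.4% and 7.87%), and 1 higher and 1 lower at day 7 (10.5% and 7.59%). The median log2 fold change over the 10 members was 0.50, 0.06, -0.17 and -0.18 at days 1, 3, 5 and 7 in SC-, and 0.59, 0.03, 0.23 and 0.37 in SC+, against medians over all genes between -0.10 and -0.01. At day 1 the share of members that were higher was above that of all genes in both SC- and SC+, and at days 5 and 7 the share was near it. The members were chosen with earlier results of these data known, so these shares are a description and not a test. The SC+ count at day 1 includes *Gadd45g*, whose call depended on single arrays, as given below.

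*Gadd45a*, a binding partner of the MEKK4 kinase and of PCNA, had its highest levels at day 1. In SC- muscle its level was 8.11 and 9.77 in the sham arrays, 12.51 and 11.39 at day 1, 10.06 and 10.15 at day 3, 9.43 and 8.60 at day 5, and 8.35 and 7.26 at day 7. In SC+ muscle it was 7.60 and 8.45 in the sham arrays, 11.44 and 12.10 at day 1, 9.46 and 10.12 at day 3, 9.07 and 8.50 at day 5, and 9.47 and 7.97 at day 7. Both MOV arrays lay above both sham arrays at days 1 and 3 in SC- and at days 1, 3 and 5 in SC+, and the day 7 arrays overlapped sham in both. *Gadd45a* rose 8.07-fold at day 1 in SC- (3.01, SE 0.56, adjusted p = 0.00111) and 13.4-fold in SC+ (3.74, SE 0.47, adjusted p = 0.000234). At day 3 the difference was 1.16 in SC- (adjusted p = 0.162) and 1.76 in SC+ (adjusted p = 0.017). The SC+ call at day 3 was lost without the first sham array (1.34, adjusted p = 0.124) or without the second day 3 array (1.44, adjusted p = 0.155).

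*Gadd45g*, another gene of the family, followed the same early course. Its level in SC- was 8.69 and 9.26 in the sham arrays, 11.80 and 11.21 at day 1, 9.44 and 9.25 at day 3, 8.79 and 8.31 at day 5, and 8.69 and 8.10 at day 7. In SC+ the sham arrays were far apart at 10.90 and 8.65, followed by 11.24 and 11.96 at day 1, 9.41 and 9.68 at day 3, 8.82 and 8.20 at day 5, and 7.89 and 7.93 at day 7. The day 1 arrays were above both sham arrays in SC- and SC+, and the day 7 arrays were at or below both. *Gadd45g* rose by 2.53 at day 1 in SC- (SE 0.49, adjusted p = 0.00145) and by 1.82 in SC+ (SE 0.54, adjusted p = 0.0371), and at day 7 it differed from sham by -0.58 in SC- (adjusted p = 0.425) and by -1.86 in SC+ (adjusted p = 0.0337). Both SC+ calls depended on single arrays. With the second sham array left out, the day 1 difference was 0.70 (adjusted p = 0.213), and with the first left out the day 7 difference was -0.74 (adjusted p = 0.242). The day 1 call was also lost without either day 1 array (2.19 and 1.46), and the day 7 call without either day 7 array (-1.85 and -1.88). A fit without the second SC+ sham array leaves 1 array in that group. There the SC+ differences of *Gadd45g* were -1.35 at day 3 and -2.39 at day 5.

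*Gadd45b*, the third family member and a target of NF-kB and TGF-beta signaling, did not pass the test at any day, although its day 1 difference in SC- lay at the threshold. Its day 1 arrays, 8.62 and 9.12 in SC- and 8.14 and 8.73 in SC+, were above the sham arrays, 7.00 and 8.41 in SC- and 7.18 and 7.99 in SC+. The day 1 difference was 1.16 in SC- (95% interval 0.35 to 1.97, adjusted p = 0.0505) and 0.85 in SC+ (0.13 to 1.57, adjusted p = 0.105). In SC- the day 1 difference passed at nearly the same size with repeated quantile normalization (adjusted p = 0.0458), without genes of a mean under 6 (0.0381) and with the trend and robust prior (0.0432). A fit without the second SC- sham array leaves 1 array in that group. There the SC- differences were 1.87, 1.15 and 1.26 at days 1, 5 and 7. Without the second SC+ sham array, again with 1 left, the SC+ differences of *Gadd45b* were 1.25 at day 1 and 1.09 at day 5. At the later days its levels ran from 7.72 to 8.30 in SC- and from 7.46 to 8.28 in SC+.

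*Mdm2* had a smaller early rise. Its level in SC- was 11.22 and 11.89 in the sham arrays, 12.42 and 12.21 at day 1, 11.61 and 11.65 at day 3, 11.47 and 10.93 at day 5, and 11.14 and 10.58 at day 7. In SC+ it was 11.07 and 11.02 in the sham arrays, 12.42 and 12.60 at day 1, 11.04 and 11.42 at day 3, 11.62 and 11.02 at day 5, and 11.94 and 11.34 at day 7. At day 7 both SC- arrays were below SC- sham and both SC+ arrays above SC+ sham. *Mdm2* differed from sham at day 1 by 0.76 in SC- (SE 0.30, adjusted p = 0.108) and rose by 1.47 in SC+ (SE 0.28, adjusted p = 0.00338). At day 7 the difference was -0.70 in SC- (adjusted p = 0.0929) and 0.59 in SC+ (adjusted p = 0.18). Without the first SC- sham array, which leaves 1 array in that group, the SC- difference was -1.04.

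*Ccng1*, which encodes cyclin G1, a p53 target that recruits the PP2A phosphatase to MDM2, fell with MOV. Its level in SC- was 18.70 and 18.44 in the sham arrays, 17.48 and 17.80 at day 1, 17.28 and 17.34 at day 3, 16.92 and 16.61 at day 5, and 16.45 and 17.06 at day 7. In SC+ it was 18.38 and 18.07 in the sham arrays, 17.54 and 17.43 at day 1, 17.22 and 16.68 at day 3, 17.71 and 17.37 at day 5, and 17.69 and 17.53 at day 7. All MOV arrays lay below both of their sham arrays. *Ccng1* fell at every day in SC-, by 0.94, 1.26, 1.81 and 1.82 on the log2 scale over the 4 days in order (SE 0.26 each, adjusted p = 0.0192, 0.00133, 3.03e-05 and 2.57e-05). In SC+ the values were -0.74, -1.28, -0.68 and -0.62 (SE 0.25 each), and only day 3 passed (adjusted p = 0.00294, against 0.0617, 0.0801 and 0.118 at days 1, 5 and 7). The SC+ difference at day 1 passed at the same size without genes of a mean under 6 (adjusted p = 0.043), with the trend and robust prior (adjusted p = 0.0443) and with the replicate number as a block (adjusted p = 0.0352), which also passed day 5 (adjusted p = 0.0473). The SC- call at day 1 was lost without the first day 1 array (-0.78, adjusted p = 0.167) or without the first sham array (-0.80, adjusted p = 0.134).

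**Figure D2:**
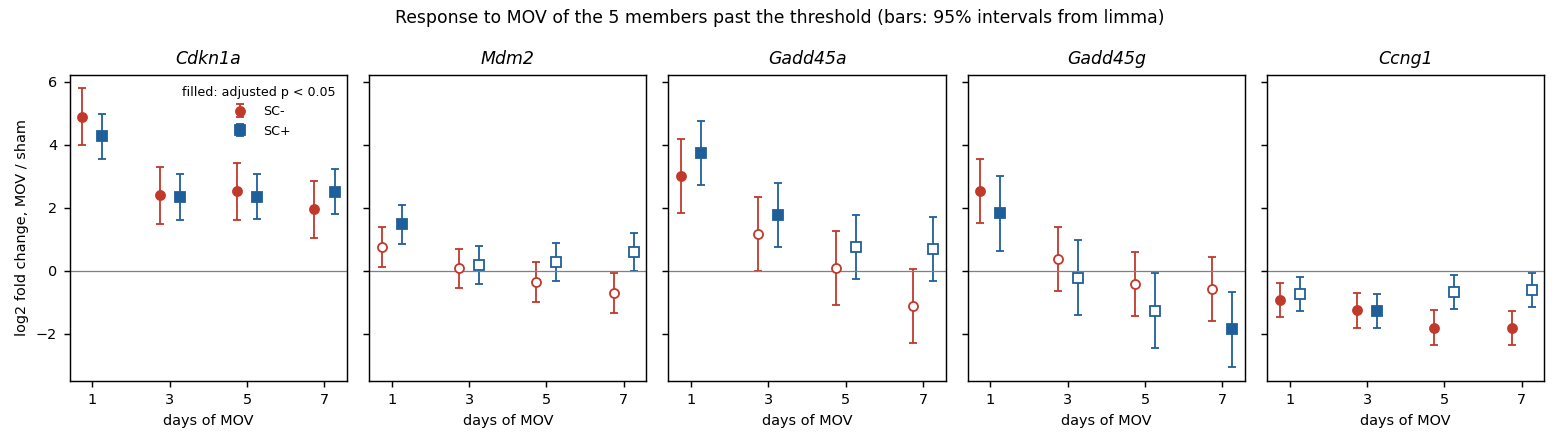
Log2 fold change of MOV over sham (y axis) at days 1, 3, 5 and 7 (x axis) for the 5 members that passed the test at 1 or more days. Red circles are SC- and blue squares SC+, bars are 95% intervals from limma, and filled symbols have an adjusted p under 0.05. *Cdkn1a* is filled at all 8 points, and *Ccng1* is filled at 4 SC- days and at day 3 in SC+.

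The other 4 members did not pass at any day. *Trp53inp1*, a nuclear protein that p53 induces under stress, had day 1 arrays of 6.30 and 7.08 in SC-, below sham arrays of 7.67 and 7.38, and of 6.99 and 6.09 in SC+, below sham arrays of 7.70 and 7.00. Its day 1 difference was -0.83 in SC- (adjusted p = 0.174) and -0.81 in SC+ (adjusted p = 0.167), and its day 7 arrays were 7.52 and 8.16 in SC- and 7.92 and 8.02 in SC+. *Phlda3*, an inhibitor of AKT that p53 induces, had 7.91 and 9.15 in the SC- sham arrays and 8.72 and 8.72 in the SC+ sham arrays, and its MOV levels were 7.88 to 8.78 in SC- and 7.96 to 9.48 in SC+. *Bbc3* stayed within 5.26 to 5.91 in all 20 arrays, and its largest difference from sham was 0.33 (SC+ day 1, adjusted p = 0.419). *Cdkn2a*, which encodes the inhibitor p16INK4a and the MDM2 antagonist ARF, a marker of senescent cells, stayed within 2.91 to 3.76, near the lower end of the table, and its largest difference from sham was -0.38 (SC+ day 3, 95% interval -0.88 to 0.11). No measure of background was used here, so whether *Cdkn2a* was above background was not tested. Arrays were also separated from sham in members that did not pass. In SC+ both *Bbc3* arrays were higher at days 1, 3 and 7, and both *Cdkn2a* arrays lower at days 3 and 5. Both *Phlda3* arrays were lower at days 1 and 3 and higher at day 7 in SC+. In SC- the MOV arrays of these 3 genes overlapped sham at every day.

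Among the MOV days, members passed at the step between days 1 and 3 alone. At day 3 against day 1, 2 members were lower in SC- (*Cdkn1a* and *Gadd45g*), where 2.25% of all genes were, and 4 were lower in SC+ (*Cdkn1a*, *Mdm2*, *Gadd45a* and *Gadd45g*), where 2.77% were. *Gadd45g* fell by 2.16 in SC- (adjusted p = 0.0121) and by 2.05 in SC+ (adjusted p = 0.0435). *Gadd45a* differed by -1.85 in SC- (adjusted p = 0.0576) and fell by 1.98 in SC+ (adjusted p = 0.0271), and *Mdm2* differed by -0.69 in SC- (adjusted p = 0.209) and fell by 1.29 in SC+ (adjusted p = 0.0181). Between days 3 and 5 no member passed, where 0.528% of all genes did in SC- and 0.246% in SC+, and between days 5 and 7 none passed, where 0.041% did in SC- and 0% in SC+. At an unadjusted p under 0.05, limma gave 1 member between days 3 and 5 in SC+, *Ccng1* (0.59, 95% interval 0.04 to 1.14), and 1 between days 5 and 7 in SC-, *Gadd45a* (-1.21, 95% interval -2.38 to -0.04). The calls between days 1 and 3 were sensitive to single arrays. Without any 1 of the arrays compared, at most 1 member passed in SC+, and in SC- *Cdkn1a* was lost without the first day 1 array (-1.93, adjusted p = 0.0717) and *Gadd45g* without that array or either day 3 array (-1.87, -2.26 and -2.07).

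SC- was then compared with SC+ at each time point, by limma at an unadjusted p under 0.05, with the adjusted p beside it. The unadjusted threshold follows the methods of the study. No member passed in sham muscle, at day 1 or at day 3, where 5.58%, 5.99% and 5.46% of all genes did. At day 5, 1 member was lower in SC-, *Ccng1* (-0.78, SE 0.26, adjusted p = 0.338), where 9.2% of all genes passed and 4.73% were lower. This call was lost without the first SC+ array (-0.61) or the second SC- array (-0.62). At day 7, 4 of 10 members were lower in SC- and none higher, where 12.1% of all genes passed and 5.91% were lower. The median difference at day 7 was -0.48 over the members and -0.01 over all genes. *Cdkn1a* was 2.55-fold lower in SC- at day 7 (-1.35, 95% interval -2.26 to -0.45, adjusted p = 0.178), with levels of 13.67 and 12.32 in SC- and 14.59 and 14.11 in SC+. *Phlda3* was 2.02-fold lower (-1.02, 95% interval -1.75 to -0.29, adjusted p = 0.219), with 7.99 and 8.33 in SC- and 9.48 and 8.87 in SC+. *Ccng1* was 1.81-fold lower (-0.86, 95% interval -1.40 to -0.31, adjusted p = 0.16) and *Mdm2* 1.72-fold lower (-0.78, 95% interval -1.41 to -0.15, adjusted p = 0.286). For these 4 genes, which were picked by their p, both SC- arrays lay below both SC+ arrays. For *Gadd45g* both SC- arrays, 8.69 and 8.10, lay above both SC+ arrays, 7.89 and 7.93. No member passed after adjustment, where 0%, 0%, 0.0308%, 0.00513% and 0.287% of all genes did in sham muscle and at days 1, 3, 5 and 7. Each of the 4 calls at day 7 was lost without at least 1 of the 4 arrays. Without the first SC+ array the difference was -1.11 for *Cdkn1a*, -0.48 for *Mdm2* and -0.71 for *Phlda3*, without the second SC- array -0.68 for *Cdkn1a* and -0.50 for *Mdm2*, and without the first SC- array -0.56 for *Ccng1* and -0.85 for *Phlda3*. *Gadd45a* did not pass, at -0.91 (95% interval -2.09 to 0.26). Its difference was -1.46 without the first SC- array and -1.67 without the second SC+ array, each with 1 array left in that group.

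Over the sham and MOV groups together, with 10 arrays on each side and the time point as a factor, *Cdkn1a* was lower in SC- by 0.74 on the log2 scale, or 1.67-fold (SE 0.19, 95% interval -1.14 to -0.34 for the signed difference, adjusted p = 0.21). It was the only member to pass at an unadjusted p under 0.05, where 8.71% of all genes did and 4.29% were lower. None passed after adjustment, where 0.041% of all genes did. The SC- arrays of *Cdkn1a* lay below both SC+ arrays in sham muscle and at days 3, 5 and 7, and the arrays overlapped at day 1. In sham muscle the nearest arrays were 11.26 in SC- and 11.28 in SC+. By limma the difference did not pass in sham muscle or at days 3 and 5 (unadjusted p = 0.0794, 0.0991 and 0.162). The share of all genes separated in this way was not counted, and other members were separated too. In sham muscle *Cdkn2a* was also lower in SC-, and *Mdm2*, *Ccng1* and *Bbc3* were higher. In SC- *Mdm2* was lower at days 1 and 7 and higher at day 3. *Ccng1* was higher at day 3 and lower at days 5 and 7. The limma difference for *Cdkn1a* was -0.80 in sham muscle (95% interval -1.70 to 0.10) and -0.18 at day 1 (-1.09 to 0.72). It was -0.75 at day 3 (-1.65 to 0.16) and -0.63 at day 5 (-1.53 to 0.28). The response of *Cdkn1a* to MOV did not pass a test of difference between SC- and SC+ at any day, with a difference of 0.62 at day 1 (-0.66 to 1.89) and -0.55 at day 7 (-1.83 to 0.73).

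The test of the response itself, SC- MOV over SC- sham minus SC+ MOV over SC+ sham, passed at an unadjusted p under 0.05 for no member at days 1 and 3, where 4.93% and 4.2% of all genes did. It passed for 1 member at day 5, lower in SC-, where 7.8% of all genes did and 3.91% were lower, and for 3 at day 7, all lower in SC-, where 9.28% did and 4.82% were lower. After adjustment no member passed, as 0% of all genes did. *Ccng1* differed by -1.12 at day 5 (SE 0.37, adjusted p = 0.565) and by -1.20 at day 7 (SE 0.37, 95% interval -1.97 to -0.43, adjusted p = 0.339). At day 7 *Mdm2* differed by -1.29 (SE 0.42, 95% interval -2.18 to -0.40, adjusted p = 0.356) and *Gadd45a* by -1.83 (SE 0.79, 95% interval -3.49 to -0.17, adjusted p = 0.491). All of these differences include the sham arrays, which for *Mdm2* were 11.22 and 11.89 in SC- and 11.07 and 11.02 in SC+. In sham muscle SC- differed from SC+ by 0.51 for *Mdm2* (95% interval -0.12 to 1.14) and by 0.91 for *Gadd45a* (-0.26 to 2.09). For *Ccng1* it differed by 0.35 (-0.20 to 0.89). *Gadd45g* went the other way, with a difference of 1.28 at day 7 (95% interval -0.16 to 2.72), and without the second SC+ sham array it passed at the unadjusted threshold at day 1 (1.83), day 3 (1.72), day 5 (1.96) and day 7.

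**Figure D3:**
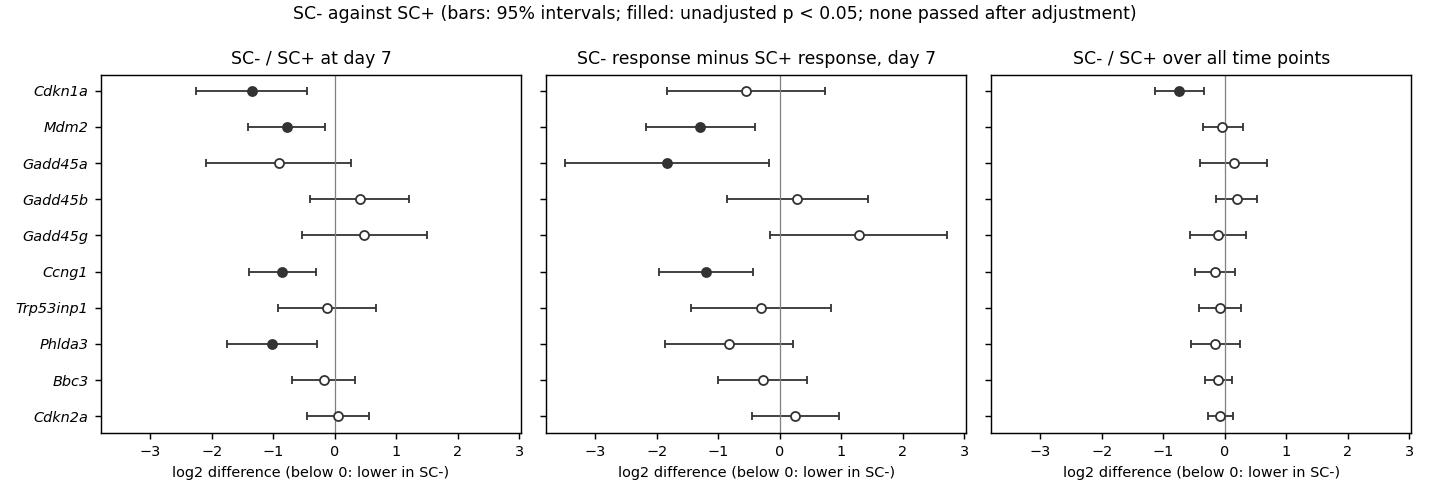
Log2 difference between SC- and SC+ (x axis, below 0 where SC- is lower) for the 10 genes (y axis), from left to right at day 7, in the day 7 response to MOV, and in the model of all groups. Points are estimates, bars 95% intervals from limma, and filled points have an unadjusted p under 0.05. *Cdkn1a* is filled in the left and right panels, and no point passed after adjustment.

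Markers of other cells moved over the same days. In SC- MOV, 2, 7, 7 and 7 of 7 macrophage markers were higher than in sham at days 1, 3, 5 and 7, and in SC+ MOV 1, 7, 7 and 6 were. The 7 neutrophil markers were all higher at day 1 in both, and 5 were higher at day 7 in SC- and 2 in SC+. Of 5 fibroblast markers, 1 was lower at day 1 and 1, 3 and 5 were higher at days 3, 5 and 7 in SC-, and 3 were lower at day 1 and 2, 4 and 5 were higher at days 3, 5 and 7 in SC+. At day 1 all 7 neutrophil markers were lower in SC- than in SC+ at an unadjusted p under 0.05, with medians of 10.22 and 10.09 in SC- and 11.92 and 11.73 in SC+. At day 7, where *Cdkn1a*, *Mdm2*, *Ccng1* and *Phlda3* were lower in SC-, 4 of 5 myoblast and myocyte markers were also lower in SC-, led by the fusion gene *Mymk* (-3.34, adjusted p = 0.203) and the differentiation factor *Myog* (-2.27, adjusted p = 0.0246), and the median over these markers was 6.28 and 6.20 in the SC- arrays against 7.44 and 7.71 in the SC+ arrays. At the same day 5 of 7 neutrophil markers and 2 of 7 macrophage markers were higher in SC-, with neutrophil medians of 9.58 and 8.93 in SC- and 6.66 and 7.79 in SC+. Of 8 myofibre markers, 2 were lower in SC- at day 7, and the median over the 8 was 19.28 and 19.57 in SC- and 19.74 and 19.69 in SC+. At day 5 this median was 19.30 and 18.89 in SC- and 19.73 and 19.66 in SC+. In sham muscle it was 19.83 and 19.72 in SC- and 19.80 and 19.79 in SC+, above every MOV array of the same treatment. These medians lay near the highest value of the table, 19.93, and whether differences were compressed there was not tested. The fibroblast medians at day 7 were 18.04 and 18.55 in SC- and 16.88 and 17.57 in SC+, where none of the 5 markers passed. In the model of all groups, where *Cdkn1a* was lower in SC-, all 5 myoblast and myocyte markers were also lower, and 3 fibroblast markers were higher at an unadjusted p under 0.05, *Col1a1* (2.02-fold, adjusted p = 0.492), *Dcn* (0.47, adjusted p = 0.151) and *Lum* (0.51, adjusted p = 0.564). Of 6 endothelial markers, 4 were higher in SC- at day 5 and 2 at day 7. The part of these cells in the levels of the members was not tested.

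Genes of the p53 pathway outside the members gave a mixed picture. Of 22 other p53 targets measured, 4, 6, 5 and 5 were higher and 3, 1, 3 and 3 lower at days 1, 3, 5 and 7 in SC-, and 5, 5, 7 and 5 were higher and 2, 1, 2 and 2 lower in SC+. Their median fold change lay between -0.08 and 0.08 in both. Of all genes, 6.8%, 11.7%, 14.9% and 15% were higher in SC- and 8.7%, 12%, 11.4% and 10.5% in SC+. The shares that were lower were 7.62%, 9.57%, 13% and 13.6% in SC- and 9.03%, 9.52%, 7.87% and 7.59% in SC+. The share of higher targets was above that of all genes at each day, in a list chosen with earlier results known. The same shares of all genes apply to the other lists counted against sham. *Plk2*, a kinase of the stress response, had the largest rise, 5.59 at day 1 in SC- (adjusted p = 4.95e-07) and 5.44 in SC+ (adjusted p = 4.02e-05), and was still higher at day 7 by 2.08 in SC- and 1.70 in SC+. *Btg2*, an antiproliferative gene, rose by 3.09 in SC- (adjusted p = 1.44e-05) and by 2.57 in SC+ (adjusted p = 0.000652) at day 1. *Tigar*, which lowers glycolytic flux, fell at every day, to -2.99 at day 7 in SC- (adjusted p = 1.11e-06) and to -2.18 in SC+ (adjusted p = 0.000356). *Eda2r*, a TNF receptor family member, rose at every day in SC+, by 3.24, 2.08, 2.60 and 2.71, and in SC- at day 1 alone, where the values were 2.34, 1.35, 0.47 and 0.04. Its response differed at day 7 by -2.66 (SE 0.82, 95% interval -4.38 to -0.94, adjusted p = 0.345), with MOV levels of 10.80 and 11.02 in SC- and 12.38 and 12.30 in SC+. Its sham arrays were 9.94 and 11.79 in SC- and 8.46 and 10.81 in SC+.

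Of 9 regulators of p53, 1, 1, 2 and 1 were higher at days 1, 3, 5 and 7 in SC- and 2, 2, 1 and 1 in SC+, and none was lower. *Trp53*, the gene of p53 itself, was not among these 9, and its level is not given here. *Hipk2*, a kinase that phosphorylates p53, rose at day 1 by 1.63 in SC- (adjusted p = 0.000361) and by 1.57 in SC+ (adjusted p = 0.00127), and the checkpoint kinase *Chek1* rose at day 3 in SC+ (1.39, adjusted p = 0.00104), where its SC- value was 0.58 (adjusted p = 0.151). Of 8 stress genes and kinase partners of GADD45, 4, 1, 1 and 0 were higher and 1, 0, 2 and 2 lower at days 1, 3, 5 and 7 in SC-, and 4, 1, 1 and 1 were higher and none lower in SC+. The 4 that rose at day 1 in both were the transcription factors *Atf3* (7.31 in SC-, 7.07 in SC+), *Atf4* (2.11 in SC-, 2.71 in SC+) and *Ddit3* (1.80 in SC-, 1.67 in SC+), and *Ppp1r15a*, the GADD34 gene (3.14 in SC-, 2.62 in SC+). The p38 kinase *Mapk14* fell in SC- at days 1, 5 and 7 (adjusted p = 0.032, 0.00807 and 0.00504), *Map3k4*, which encodes MEKK4, at day 5 (adjusted p = 0.0335) and *Atf4* at day 7 (-1.08). At day 3 only *Atf3* was still higher, by 3.50 in SC- and 2.80 in SC+. The count of higher genes was greatest at day 1.

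Other inhibitors of growth changed in both directions. Of 8 other inhibitors of cyclin-dependent kinases and pocket proteins, at most 2 were higher and 2 lower at any day in SC- or SC+. *Rbl2*, the p130 pocket protein of resting cells, fell at every day, by 1.77 in SC- and 1.91 in SC+ at day 3 (adjusted p = 0.000525 and 0.000752), and *Rbl1*, p107, rose at day 3 by 1.56 in SC- and by 1.79 in SC+ (adjusted p = 0.000107 and 0.000221). *Cdkn1c*, the inhibitor p57, was lower in SC- over all time points by 0.53 on the log2 scale (SE 0.13, adjusted p = 0.187), which passed at an unadjusted p under 0.05 alone. Of 8 other antiproliferative genes, *Btg1* rose at every day (2.28 in SC- and 3.16 in SC+ at day 1), and *Tob1* fell at every day (-1.63 in SC- and -1.88 in SC+ at day 1). *Foxo4* and *Tob2* fell at days 3, 5 and 7 in SC- and at every day in SC+.

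Genes that drive the cell cycle were higher from day 3. Of 15 S phase and mitosis genes, 2, 13, 15 and 15 were higher at days 1, 3, 5 and 7 in SC- and 2, 14, 14 and 9 in SC+, with median fold changes of 2.46 in SC- and 1.44 in SC+ at day 7. *Mki67*, the proliferation marker, rose at day 5 by 6.59 in SC- and by 4.81 in SC+ (adjusted p = 4.32e-06 and 0.00126). All 7 G1 cyclins and their kinases that were measured, of 8 listed, were higher at day 5 in both. *Cdk4* was higher by 2.57 in SC- and by 3.02 in SC+ (adjusted p = 5.5e-05 and 0.000974). *Ccnd1* was not among the 7. At day 7, 10 of the 15 S phase and mitosis genes were higher in SC- than in SC+ at an unadjusted p under 0.05. There 12.1% of all genes passed in either direction, and none of the 15 passed after adjustment. At day 3, 4 of the 15 were lower in SC- and none higher, where 5.46% of all genes passed. Over all time points, where *Cdkn1a* was lower in SC-, none of the 15 passed. A link between *Cdkn1a* and these genes was not tested. Of 13 BCL2 family genes, 3, 4, 5 and 4 were higher at days 1, 3, 5 and 7 in SC- and 5, 5, 4 and 3 in SC+, and 1 was lower, *Bcl2*, which opposes apoptosis, at day 1 in SC- (-0.90, adjusted p = 0.0357). Those that were higher included *Mcl1*, which acts in the same way, by 1.08 in SC- and by 1.98 in SC+ at day 1 (adjusted p = 0.0058 and 0.000223).

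**Figure D4:**
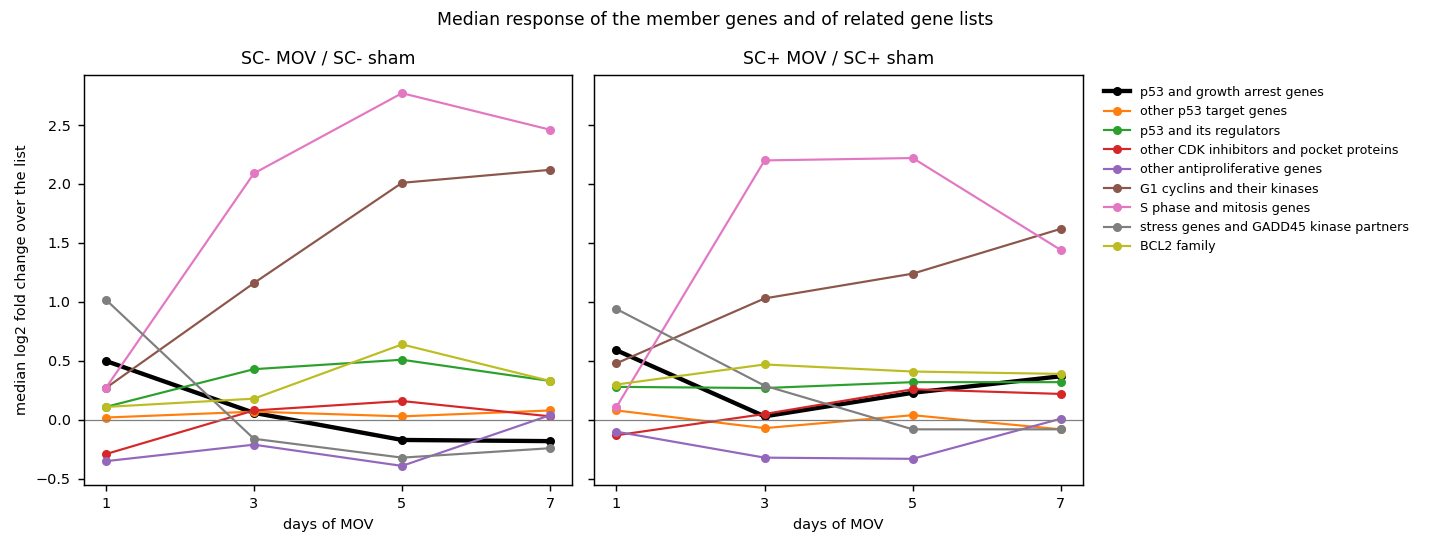
Median log2 fold change of MOV over sham (y axis) at days 1, 3, 5 and 7 (x axis) over the 10 genes (thick black line) and over 8 related gene lists (thin lines), SC- on the left and SC+ on the right. The black line is highest at day 1, at 0.50 in SC- and 0.59 in SC+, and the S phase and mitosis list is highest at day 5, at 2.77 in SC- and 2.22 in SC+.

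For each member that passed in SC+, the 3 genes with the most similar levels over the 20 arrays were found among 9847 genes, as a description over arrays that share the time course. *Cdkn1a* was most like the heat shock gene *Hspb8* (Pearson r = 0.934), the TNF receptor family gene *Tnfrsf23* (0.932) and the actin regulator *Enah* (0.931). *Gadd45a* was most like the myogenic factor *Myf6* (0.962), *Musk*, the receptor kinase of the neuromuscular junction (0.954), and the small GTPase *Rrad* (0.95), and *Mdm2* was most like *Myf6* (0.913), *Tmbim1* (0.909) and *Gadd45a* itself (0.903). *Gadd45g* was most like *Ifrd1* (0.93), *Tmem140* (0.929) and the creatine transporter *Slc6a8* (0.923). *Ccng1* was most like the phosphofructokinase *Pfkm* (0.969), the fast troponin I *Tnni2* (0.966) and the complex I subunit *Ndufa5* (0.966).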

How the data were processed

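RNA of whole plantaris muscle was pooled over mice, labelled with biotin and hybridised to Affymetrix arrays, 2 pools for each of 10 groups. The values analysed are on the log2 scale as the authors deposited them, for 28846 probe sets, made with RMA according to the submitters' processing notes (background correction, quantile normalization, log2). The probe-set version is not given in the sources used here. RMA makes the arrays' distributions alike, so changes are relative to the other transcripts. The number of arrays limits the precision.

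The 19572 probe sets annotated to 1 gene symbol gave 19505 genes (for 55 genes with several probe sets, the one with the highest mean). limma 3.58.1 in R 4.3.3 (lmFit, eBayes) was fitted to all 19505 genes with a mean for each group and Benjamini-Hochberg adjustment. MOV against sham and consecutive days were fitted on the 10 SC+ arrays for SC+ and on all 20 arrays for SC-, with calls at an adjusted p under 0.05. SC- against SC+, the difference between their responses and the model with time point as a factor used all 20 arrays, with calls at an unadjusted p under 0.05. Intervals are 95% intervals of these fits. The fits were tested on simulated data.

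The members and all gene lists were chosen with earlier results of these data known. All 10 members are named, and of each pathway list up to 4 genes with the largest changes among those past the threshold. *Eda2r* levels, *Mapk14*, *Map3k4*, *Bcl2* and the cell markers named with values were chosen after their values were seen. Some listed genes were not analysed here. Alternatives were another quantile normalization, median centring, a filter at a mean of 6, all rows of the table, a prior with trend and robust estimation, another set of arrays, a replicate block, and each array left out in turn.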

Additional observations from a re-analysis of the deposited data

Results flagged for a closer look

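The response to MOV differed between SC- and SC+ by an interaction test at an unadjusted p under 0.05 in 3 members, and in none after adjustment. *Mdm2* differed by -1.29 at day 7, with a response of -0.70 in SC- and 0.59 in SC+. *Gadd45a* differed by -1.83 at day 7, with a response of -1.13 in SC- and 0.69 in SC+, and lost the call with all rows of the table, with the trend and robust prior, and without the second SC- day 7 array (-1.28), the second SC- sham array (-0.99), the first SC+ day 7 array (-1.07) or the first SC+ sham array (-1.40). *Ccng1* differed by -1.12 at day 5 and by -1.20 at day 7, with responses of -1.81 and -1.82 in SC- and of -0.68 and -0.62 in SC+. Groups of 2 arrays were too small for a search for outlying arrays.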

How the results depend on the processing

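No call reversed its direction under any alternative. With 2 pools a group, the counts of members past the threshold moved with single arrays. A fit without 1 array leaves its group with a single array and no spread of its own. The count over all genes also moved with the array left out. Whether the members moved more than all genes did was not tested. Leaving out each array of the groups compared in turn gave 3 to 5 members at day 1, 2 to 3 at day 3, 2 to 3 at day 5 and 1 to 4 at day 7 in SC-, and 3 to 4, 2 to 4, 1 to 3 and 1 to 2 in SC+. For SC- against SC+ it gave 1 to 3 members in sham muscle, 0 at days 1 and 3, 0 to 1 at day 5, 1 to 5 at day 7 and 1 over all time points. For the difference between the responses it gave 0 to 1 at day 1, 0 to 1 at day 3, 1 to 2 at day 5 and 2 to 4 at day 7. Between days 1 and 3 it gave 0 to 3 in SC- and 0 to 1 in SC+, and between later days 0.

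Among the other settings, all rows of the table and the trend and robust prior each gave 1 member at day 7 in SC+ in place of 2, losing *Gadd45g*, and all rows of the table gave 1 in place of 4 between days 1 and 3 in SC+. Apart from the replicate block given below, the other counts stayed within 1.5 times. Of single member results, 11 lost and 9 gained a call under these settings, and 231 kept theirs. No member had a second probe set, so that alternative gave no value. The cause of these changes was not tested.

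Replicate numbers did not pair the samples: deviations of same-numbered arrays from their group means correlated at -0.155 to 0.216 (median -0.00915, 45 pairs). With the replicate number as a block, 2 members passed in SC+ at day 5 in place of 1, since *Ccng1* also passed (-0.68, adjusted p = 0.0473), and *Ccng1* passed at day 1 in SC+ (-0.74, adjusted p = 0.0352). The block changed no other call of a member.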
